A study of Gloeophyllum trabeum with 9 samples.

Results

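Of the 9 RNA-seq libraries of the series, 6 hold the comparison described here, in which the brown rot fungus Gloeophyllum trabeum strain NBRC6430 grew on wood of the conifer Cryptomeria japonica (Japanese cedar) or on glucose. There were 3 cedar libraries, from cultures grown for 5 days with nanofibrillated cedar wood flour as the sole carbon source, and 3 glucose libraries, from cultures grown for 3 days with glucose as the sole carbon source. Members were chosen by the carbon source in the sample labels, and all 11846 gene models of the deposited table were taken, of which 10555 reached 0.1 TPM (a transcript abundance corrected for transcript length and library size) in at least 3 of these 6 libraries and were tested. The other 3 libraries, from 5-day cultures on microcrystalline cellulose, were used only to show where cedar cultures differed from cellulose cultures. This cellulose was nanofibrillated by the same treatment as the cedar. All cultures were mycelia of 1 strain in shaken flasks of the same mineral medium, which contained iron, so these groups model submerged growth on a fine wood suspension and not colonization of solid wood. Carbon source and culture age cannot be told apart in the comparison of cedar with glucose.

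Brown rot fungi remove the cellulose and hemicellulose of wood and leave a modified lignin. They are known for a chemical attack that comes before the enzymes, in which hydrogen peroxide made by oxidases reacts with reduced iron to give hydroxyl radicals, while oxalate and fungal quinones help to mobilize and reduce the iron. Endoglucanases, beta-glucosidases, hemicellulases and pectinases then cut the opened polysaccharides, and cytochrome P450 monooxygenases are thought to help with lignin fragments and wood extractives.

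Values are TPM as the authors normalized them, so they compare libraries for the same gene model and, being corrected for transcript length, different gene models within a library. The read depth behind each value is unknown, since the values are not counts, and in such bulk samples fewer cells of a type and less RNA per cell cannot be told apart. The normalized TPM summed to 709862 to 899473 in the cedar libraries and 678148 to 771024 in the glucose libraries, and no gene model had the same value above 0 in any pair of libraries. Cedar replicate 2 stood apart from the other cedar libraries: 408 tested gene models lay over 1 log2 unit from the mean of the others on the log2 scale, against 148 for cedar replicate 1 and 76 for cedar replicate 3. The part of this library in the results was not tested beyond leaving it out, and the values without it are given where it changed a call. A gene model is called upregulated or downregulated on cedar where the adjusted p of limma (moderated test on log2(TPM + 0.5), Benjamini-Hochberg over all gene models tested, two-sided) was under 0.01 and the group means had a ratio of 2 or more, or 0.5 or less. Fold changes are those of the fit on the log2(TPM + 0.5) scale, which understates the change of low gene models.

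On cedar, 1601 gene models (15.2% of those tested) were upregulated and 1660 (15.7%) were downregulated, with a median log2 fold change of 0.04 over all gene models tested. Scaling all libraries to an equal TPM sum gave a median of -0.12, and 1326 gene models were upregulated and 2011 downregulated, so the balance between both directions depends on the scaling. The 3 cedar libraries were all above the 3 glucose libraries in 3870 gene models (36.7%) and all below them in 3668 (34.8%). Most changes were moderate, with a median ratio of 3.16 among the upregulated and 0.291 among the downregulated gene models. The ratio was 10 or more in 198 upregulated gene models and 1/10 or less in 300 downregulated ones.

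Much of the messenger RNA pool was exchanged, since abundant gene models were often among those that changed. The upregulated gene models together held 30.3%, 31.9% and 29.4% of the TPM in the cedar libraries, against 5.68%, 5.28% and 6.22% in the glucose libraries. The downregulated gene models held 4.35%, 4.44% and 4.11% of the TPM in the cedar libraries, against 37.7%, 35.9% and 42.0% in the glucose libraries. These shares describe gene models that were chosen by the same contrast and were not tested. Of the 100 most abundant gene models on cedar, 54 were upregulated and 4 downregulated. Of the 100 most abundant on glucose, 63 were downregulated and 7 upregulated, and both sets shared 37 gene models. At the other end, 575 upregulated gene models had a mean under 10 TPM on cedar and 363 downregulated ones had a mean under 10 TPM on glucose.

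**Figure D1:**
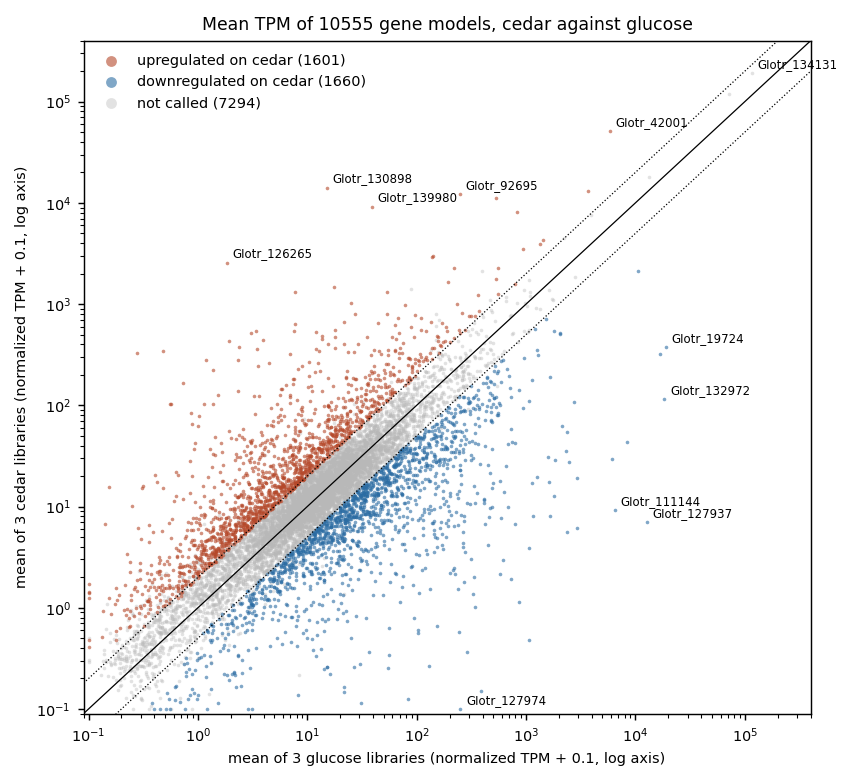
Mean normalized TPM + 0.1 of the 3 cedar libraries (vertical, log axis) against that of the 3 glucose libraries (horizontal, log axis) for the 10555 gene models tested; red points were upregulated on cedar (1601), blue points downregulated (1660) and grey points neither (7294). The solid line marks equal means and the dotted lines the ratios of 2 and 0.5; Glotr_130898, Glotr_139980 and Glotr_92695 reach 14113, 9168 and 12166 TPM on cedar, while Glotr_127937 and Glotr_132972 lie far below the line.

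The pair Glotr_134131 and Glotr_50888 was the most abundant on cedar, and neither passed the test. Glotr_134131 had 208608, 147170 and 217837 TPM in the cedar libraries, against 126986, 142891 and 79601 TPM in the glucose libraries. All cedar libraries were above all glucose libraries, but the lowest cedar value, in replicate 2, was close to the highest glucose value, and the log2 fold change was 0.74 (standard error 0.798, limma adjusted p = 0.444). Glotr_50888 had 129947, 89709 and 138638 TPM in the cedar libraries, against 77976, 89773 and 49294 TPM in the glucose libraries, and its groups overlapped. Together they held 33.4% to 39.6% of the TPM in the cedar libraries and 19.0% to 30.2% in the glucose libraries. The annotation used here covers only gene models with the lowest ID numbers and gives neither a function.

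Among the other 8 of the 10 most abundant gene models on cedar, 7 were upregulated and Glotr_108693 was not. The highest was Glotr_42001, a protein of unknown function, with 67763, 26779 and 59127 TPM in the cedar libraries, against 6847, 5899 and 4919 TPM in the glucose libraries. Its groups were far apart although cedar replicate 2 was well below the other cedar libraries, and its log2 fold change was 3.03 (standard error 0.466, limma adjusted p = 0.00114). Glotr_92695 had the reverse pattern among the cedar libraries, with 8851, 18259 and 9389 TPM, against 177, 281 and 290 TPM in the glucose libraries and a log2 fold change of 5.56 (limma adjusted p = 1.57e-05). Glotr_67345 and Glotr_21379, to which the annotation used here gives no function, were upregulated with log2 fold changes of 4.39 and 3.27. With no filter on low values, the adjusted p of Glotr_42001 was 0.443 and it lost its call.

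Glotr_139980, an alcohol oxidase of family AA3_3, was also among these 10 and was upregulated. Alcohol oxidases oxidize methanol, which brown rot releases when lignin and pectin lose methyl groups, and give off hydrogen peroxide. Glotr_139980 had 8979, 9744 and 8780 TPM in the cedar libraries, against 44.7, 37.5 and 34.6 TPM in the glucose libraries. The spread within each group was small beside the gap, and the log2 fold change was 7.87 (standard error 0.144, limma adjusted p = 1.61e-07). On cellulose this gene had 8348, 6697 and 7825 TPM, and cedar and cellulose did not differ past the threshold (0.27, limma adjusted p = 0.541).

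The 12 largest rises of the fit lay between log2 fold changes of 7.06 and 10.30, and in all 12 the groups did not overlap, as the rule for naming them required. Of the 12, 4 were transporters of the major facilitator superfamily (MFS), which carry sugars and other small molecules across membranes. Glotr_125226 had 342, 249 and 391 TPM in the cedar libraries, against 0.0305, 0.392 and 0.116 TPM in the glucose libraries, and Glotr_139707 had 374, 518 and 410 TPM, against 1.85, 1.82 and 1.84 TPM. In each, every glucose library was below 2 TPM, and the log2 fold changes were 8.92 (standard error 0.237) and 7.53 (standard error 0.132). Glotr_77119 and Glotr_122499 also rose, by log2 fold changes of 7.20 and 7.08. Glotr_40998, which the annotation places among reductases that use NAD(P) as cofactor, had 549, 544 and 548 TPM in the cedar libraries, against 4.51, 2.87 and 2.43 TPM in the glucose libraries (log2 fold change 7.22). Glotr_77637, listed by the study as a carbohydrate esterase of family CE10, had 190, 88.5 and 218 TPM in the cedar libraries, against 0.578, 0.629 and 0.703 TPM in the glucose libraries (log2 fold change 7.09). The study lists Glotr_126265, Glotr_130898, Glotr_130130 and Glotr_137245, also among the 12, as hypothetical proteins. The fold of Glotr_130130 rests on glucose values of 0, 0 and 1.15 TPM.

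**Figure D2:**
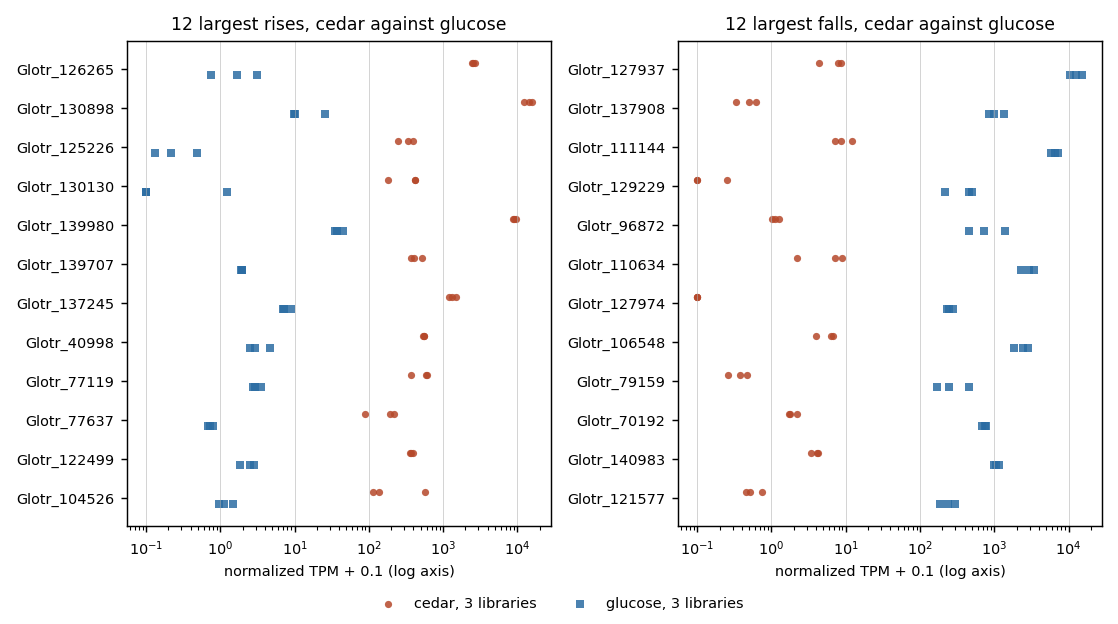
Normalized TPM + 0.1 (horizontal, log axis) in each cedar library (red circles) and each glucose library (blue squares) for the 12 gene models with the largest rises (left) and the 12 with the largest falls (right). The groups do not overlap in any of the 24; the glucose libraries of Glotr_139707 lie at 1.82 to 1.85 TPM, while Glotr_104526 spreads between 115 and 580 TPM on cedar, and Glotr_127974 is listed at 0 in every cedar library.

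The 12 largest falls lay between log2 fold changes of -10.79 and -7.94. The annotation gives none of the 12 a function, but it covers only gene models with the lowest ID numbers. Glotr_127974 was listed at 0 in all cedar libraries and all cellulose libraries, and had 234, 275 and 245 TPM in the glucose libraries (limma adjusted p = 5.37e-08). Glotr_111144 had 8.6, 11.9 and 6.98 TPM in the cedar libraries, against 6546, 7191 and 5850 TPM in the glucose libraries, a log2 fold change of -9.43 (standard error 0.197). Glotr_70192 had 1.65, 1.7 and 2.10 TPM in the cedar libraries, against 769, 674 and 761 TPM in the glucose libraries, a log2 fold change of -8.32 (standard error 0.113). In these 3 genes no cedar library exceeded 11.9 TPM and no glucose library was below 234 TPM. In all, 9 downregulated gene models were listed at 0 in every cedar library, and 5 upregulated ones at 0 in every glucose library. Among the gene models downregulated from a high level, Glotr_132972, chosen after its values were seen, had 140, 71.1 and 132 TPM in the cedar libraries, against 18906, 16598 and 19840 TPM in the glucose libraries (log2 fold change -7.38).

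Hydrophobins, the small secreted proteins that coat fungal surfaces and let hyphae cross air and water interfaces, held 1 of the most abundant glucose transcripts. Glotr_19724 had 418, 306 and 405 TPM in the cedar libraries, against 16634, 18739 and 21804 TPM in the glucose libraries. It fell on cedar with a log2 fold change of -5.66 (standard error 0.220, limma adjusted p = 2.15e-06) and was also lower than on cellulose, where it had 3987, 2463 and 1927 TPM. Of the 8 hydrophobins that the annotation names, Glotr_18552 was also downregulated (-1.89) and Glotr_28272 upregulated (1.05). The list thus had 2 downregulated and 1 upregulated, against 15.7% and 15.2% of all gene models tested. The other 5 passed neither threshold pair, among them Glotr_14179, with 1669, 430 and 1471 TPM in the cedar libraries, against 932, 1223 and 1073 TPM in the glucose libraries, where the groups overlapped and cedar replicate 2 was far below the other two. Hydrophobins are a gene family with similar members, and the counting by pseudoalignment may divide reads among close copies.

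Genes of wood decay were read from families that the study lists, 126 gene models in 25 lists. Of these 126, 76 were upregulated, 12 downregulated and 38 neither, against 15.2% and 15.7% of all gene models tested. The study chose 56 of them on these samples (35 P450 genes, 9 oxidases of family AA3_2, 6 MFS transporters, 4 iron-reducing glycopeptides and 2 alcohol oxidases), so their direction is not independent evidence. Of the 70 gene models in families listed in full, 28 were upregulated, 11 downregulated and 31 neither, with a median log2 fold change of 0.72. Without cedar replicate 2, 81 of the 126 were upregulated, and without cedar replicate 3, 67 were.

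**Figure D3:**
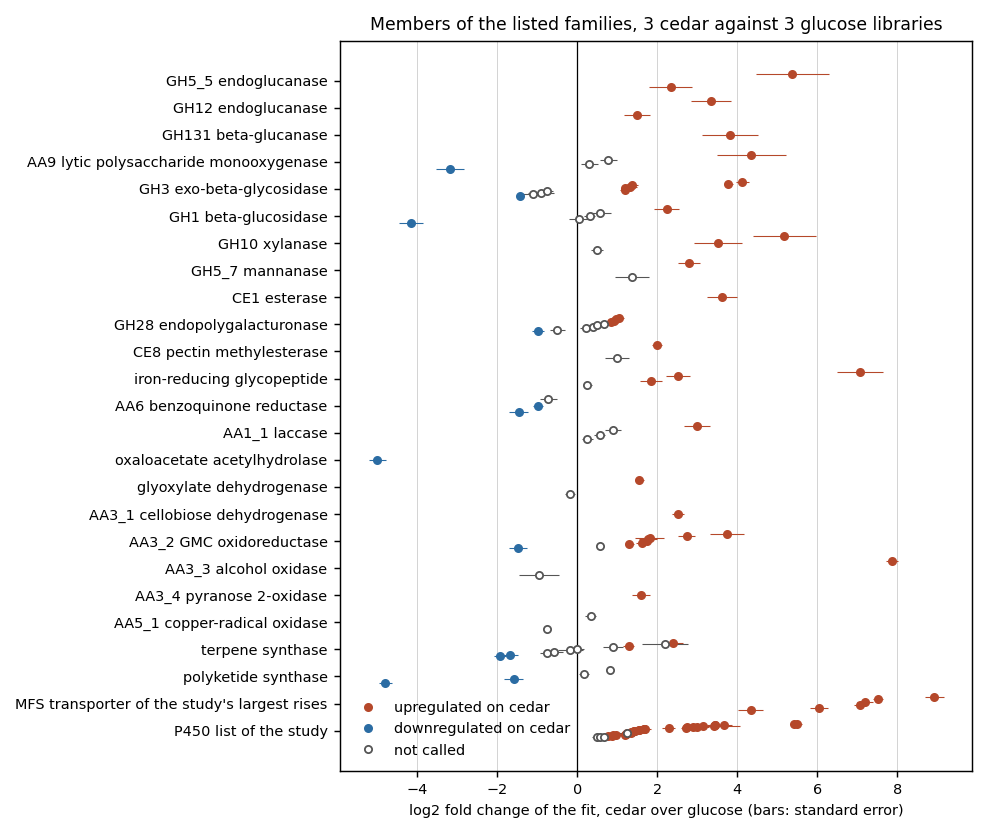
Log2 fold change of the fit, cedar over glucose (horizontal; bars are standard errors), of each of the 126 gene models of the families listed by the study; filled red points were upregulated, filled blue points downregulated and open points neither. GH10 xylanases, GH5_7 mannanases, the 6 MFS transporters and the 35 P450 genes lie to the right of 0, the 3 AA6 reductases to the left, and GH1, AA9, terpene synthase and polyketide synthase members on both sides.

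Of the 24 genes that act on cellulose (families GH5_5, GH12, GH131, AA9, GH3 and GH1), 13 were upregulated and 3 downregulated on cedar. The shares over all gene models tested were 15.2% and 15.7%. The GH1 beta-glucosidases, which split cellobiose into glucose, moved in opposite directions. Glotr_141319 had 26.5, 16.3 and 29.6 TPM in the cedar libraries, against 6.07, 5.47 and 2.81 TPM in the glucose libraries, and rose with a log2 fold change of 2.24 (standard error 0.317, limma adjusted p = 0.000763). Glotr_81012 had 16, 7.59 and 15.8 TPM in the cedar libraries, against 259, 264 and 178 TPM in the glucose libraries, and fell with a log2 fold change of -4.15 (standard error 0.304, limma adjusted p = 3.41e-05). The groups overlapped in the other 3 GH1 genes, of which Glotr_106990 was upregulated without cedar replicate 2 (0.91). Within family GH3, Glotr_75899 went against the 6 upregulated members, with 37.8, 40.3 and 38.7 TPM in the cedar libraries, against 100, 106 and 109 TPM in the glucose libraries (-1.42). Rescaled to the same total TPM, 4 GH3 genes were downregulated.

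The endoglucanase Glotr_63180 and the AA9 gene Glotr_63531 had the largest log2 fold changes of the cellulose group and spread widely among the cedar libraries. In 20 of the 24 cellulose genes, cedar replicate 2 was the lowest cedar library, against 4895 of the 10555 gene models tested. Glotr_63180 (GH5_5) had 303, 31.2 and 404 TPM in the cedar libraries, and Glotr_63531 (AA9) had 1077, 119 and 1200 TPM. The glucose libraries had at most 5.13 TPM of Glotr_63180 and 39.5 TPM of Glotr_63531, so each cedar library lay above them even in replicate 2. The calls of the second gene of each endoglucanase family, Glotr_57704 (GH5_5) and Glotr_62344 (GH12), and of Glotr_63531 and Glotr_106470 (GH131) were lost without several of the single libraries. For Glotr_63531 these were cedar replicates 1 (3.85) and 3 (3.77) and glucose replicates 2 (4.34) and 3 (4.07), and for Glotr_106470 glucose replicates 2 (3.77) and 3 (3.52). For Glotr_57704 the call was lost without each of the libraries (1.96 to 2.42) but cedar replicate 2 (3.01), and for Glotr_62344 without cedar replicates 1 (1.43) and 3 (1.23) and glucose replicates 1 and 2 (1.38 each).

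Of the 6 hemicellulose genes, 4 rose on cedar and none fell, against 15.2% and 15.7% of all gene models tested. Both large rises among the xylanases of family GH10, which cut the xylan chain, had cedar replicate 2 far below the other cedar libraries. Glotr_140289 had 191, 23.2 and 199 TPM in the cedar libraries, against 2.12, 3.06 and 1.57 TPM in the glucose libraries, a log2 fold change of 5.18 (standard error 0.793, limma adjusted p = 0.00112). Glotr_46499 had 128, 28.0 and 163 TPM in the cedar libraries, against 6.24, 8.0 and 6.4 TPM in the glucose libraries, a log2 fold change of 3.52 (standard error 0.610, limma adjusted p = 0.00199, or 0.0115 with no filter on low values). Their cedar values stayed above every glucose value in replicate 2. The GH5_7 mannanase Glotr_135369, which cuts the mannan that is the main hemicellulose of conifers, had 61.1, 39.0 and 69.6 TPM in the cedar libraries, against 8.33, 9.27 and 5.42 TPM in the glucose libraries (2.79, limma adjusted p = 0.000112). The second mannanase, Glotr_110405, missed the threshold (1.38, limma adjusted p = 0.0258) and passed it without cedar replicate 2 (1.80). The esterase Glotr_117128 of family CE1, a family that removes acyl groups from hemicellulose, rose, with 81.4, 33.7 and 95.7 TPM in the cedar libraries, against 4.48, 5.58 and 4.29 TPM in the glucose libraries (3.62).

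Of the 12 pectin genes 5 were upregulated and 1 downregulated, against 15.2% and 15.7% of all gene models tested. Of 10 GH28 genes, a family of endopolygalacturonases that cut the pectin backbone, 4 were upregulated and 1 downregulated, and no upregulated member exceeded 10 TPM in any cedar library. Glotr_6650 had 2.92, 2.17 and 2.56 TPM in the cedar libraries, against 1.05, 0.990 and 0.887 TPM in the glucose libraries, which gave the largest rise of the family (1.04, standard error 0.135). Glotr_54367, Glotr_138836 and Glotr_141341 had log2 fold changes of 0.85, 0.91 and 0.97, and none of these 3 was called by the fold change of the fit in place of the ratio. The ratio also went under 2 without glucose replicate 1 in Glotr_54367 (0.76) and without cedar replicate 3 in Glotr_141341 (0.91). The most abundant member, Glotr_117232, had 23.8, 20.5 and 23.1 TPM in the cedar libraries, against 52.9, 36.6 and 47.2 TPM in the glucose libraries. It was downregulated (-0.99), but not without cedar replicate 2 (-0.93), glucose replicate 1 (-0.88) or glucose replicate 3 (-0.96). The pectin methylesterase Glotr_77537 (CE8), which frees methanol from pectin, had 8.41 to 10.4 TPM in the cedar libraries, against 1.93, 1.86 and 2.27 TPM in the glucose libraries, and rose with a log2 fold change of 2.0 (standard error 0.124, limma adjusted p = 1.63e-05). The other CE8 gene, Glotr_112531, missed the threshold (1.0, limma adjusted p = 0.0219) and passed it without cedar replicate 2 (ratio of means 3.25).

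Of 15 genes of families proposed to make hydrogen peroxide, 10 were upregulated and 1 downregulated, against 15.2% and 15.7% of all gene models tested. The study chose the 9 AA3_2 and 2 AA3_3 genes among them on these samples, so this count is not independent evidence. Of the 9 listed members of family AA3_2, which holds oxidases and dehydrogenases of sugars and aromatic alcohols, 7 were upregulated. Glotr_82487 was the most abundant of them, with 740, 1347 and 831 TPM in the cedar libraries, against 42.9, 57.8 and 135 TPM in the glucose libraries (3.75, standard error 0.436, limma adjusted p = 0.000299). Glotr_89774 had 9.76, 15.4 and 9.65 TPM in the cedar libraries, against 1.45, 1.41 and 1.0 TPM in the glucose libraries (2.74), a call that was lost with all 3 groups in 1 fit (adjusted p = 0.0111). In both, and in Glotr_109397 (1.78), cedar replicate 2 was the highest cedar library, the reverse of the endoglucanases. Over the 9 members it was the highest cedar library in 4 and the lowest in 5. Glotr_80540 fell, with 10.3, 6.91 and 9.97 TPM in the cedar libraries, against 27.5, 31.9 and 19.7 TPM in the glucose libraries (-1.48). The call of Glotr_139690 (1.81) was lost without any 1 of the cedar libraries (1.79 to 1.84) and without glucose replicate 2 (1.69).

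In the families of peroxide-forming enzymes that were listed in full, the single cellobiose dehydrogenase and the single pyranose 2-oxidase rose. Cellobiose dehydrogenase, which oxidizes the sugar cellobiose, is encoded by Glotr_113732, with 9.19, 8.17 and 11.2 TPM in the cedar libraries, against 1.30, 1.13 and 1.29 TPM in the glucose libraries (2.52, standard error 0.138, limma adjusted p = 9.22e-06). Glotr_116786, pyranose 2-oxidase, had 14.3, 7.59 and 13.2 TPM in the cedar libraries, against 3.44, 3.51 and 3.34 TPM in the glucose libraries (1.59, limma adjusted p = 0.000784), a call that was lost with all 3 groups in 1 fit (adjusted p = 0.0785). Neither copper-radical oxidase (AA5_1) was called. Glotr_65654 was nonetheless below glucose in every cedar library, with 147, 132 and 143 TPM in the cedar libraries, against 231, 234 and 249 TPM in the glucose libraries and a ratio of 0.592.

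Genes of iron and quinone reduction were divided. Of the 4 genes that the study lists as putative glycopeptides that reduce ferric iron, 3 rose on cedar, in a list chosen on these samples. Among all gene models tested, 15.2% were upregulated. Glotr_104526 had 115, 580 and 137 TPM in the cedar libraries, against 1.41, 0.849 and 1.01 TPM in the glucose libraries (7.06, standard error 0.576). Here cedar replicate 2 was over 4 times as high as the other cedar libraries, and each of these was over 80 times as high as any glucose library. Glotr_101715 was far more abundant, with 14874, 11474 and 13307 TPM in the cedar libraries, against 3428, 3149 and 4595 TPM in the glucose libraries (1.84, limma adjusted p = 0.00108). Its adjusted p was 0.0102 with all 3 groups in 1 fit and 0.141 with no filter on low values. Glotr_132851 rose by a log2 fold change of 2.53, and Glotr_58158, with 222, 179 and 230 TPM in the cedar libraries, against 178, 171 and 176 TPM in the glucose libraries, did not pass (0.26, limma adjusted p = 0.109).

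The benzoquinone reductases of family AA6, intracellular enzymes that return quinones to hydroquinones, were all lower on cedar. Glotr_82342 had 90.0, 151 and 111 TPM in the cedar libraries, against 264, 292 and 416 TPM in the glucose libraries (-1.46, standard error 0.241, limma adjusted p = 0.00157). Glotr_66940 had 10.3, 9.55 and 9.39 TPM in the cedar libraries, against 16.6, 20.1 and 22.6 TPM in the glucose libraries (-0.97), a call that was lost without cedar replicate 3 (-0.95) or glucose replicate 3 (-0.87). Glotr_101783 was also below glucose in every cedar library and was not called (-0.72, limma adjusted p = 0.0220). Of 4 laccases (AA1_1), copper oxidases of phenols, Glotr_130426 was upregulated, with 6.99, 17.8 and 8.24 TPM in the cedar libraries, against 0.890, 0.941 and 0.674 TPM in the glucose libraries (3.00, standard error 0.323). Glotr_127593 passed without cedar replicate 2 (1.07) or glucose replicate 1 (1.05) and not otherwise (0.89).

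Oxalate metabolism held the largest fall among the family lists. Glotr_42369, listed by the study as oxaloacetate acetylhydrolase, which makes oxalate from oxaloacetate, had 16.6, 13.6 and 23.0 TPM in the cedar libraries, against 542, 679 and 501 TPM in the glucose libraries. It fell with a log2 fold change of -5.00 (standard error 0.209, limma adjusted p = 2.81e-06). On cellulose it had 3351, 4632 and 1877 TPM, and it was lower on cedar than on cellulose with a log2 fold change of -7.43 (limma adjusted p = 0.000225), the largest such difference among the gene models called against glucose. Glyoxylate dehydrogenase, which oxidizes glyoxylate to oxalate, has 2 genes, of which Glotr_54623 rose, with 43.1, 37.0 and 44.7 TPM in the cedar libraries, against 12.8, 13.4 and 15.4 TPM in the glucose libraries (1.55, standard error 0.116, limma adjusted p = 3.79e-05). Glotr_61065 had 16.3, 17.1 and 16.2 TPM in the cedar libraries, against 18.3, 16.3 and 22.5 TPM in the glucose libraries, and its groups overlapped. Glotr_42369 and Glotr_54623 thus had opposite changes on cedar, while the second glyoxylate dehydrogenase gene was not called.

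All 35 P450 genes of the study's list were above glucose in every cedar library and 31 were upregulated, against 36.7% and 15.2% of all gene models tested. As the study chose this list on these samples, its direction is not independent evidence, and the values are given as a description. P450 enzymes are monooxygenases that use heme to add oxygen to many small molecules. Glotr_140224 was the most abundant of them, with 493, 541 and 554 TPM in the cedar libraries, against 10.8, 12.3 and 12.6 TPM in the glucose libraries (5.42, standard error 0.103). Glotr_63933 had 59.7, 56.4 and 72.3 TPM in the cedar libraries, against 0.769, 0.954 and 0.959 TPM in the glucose libraries (5.50, standard error 0.126). Most of the list was low, and the smallest called rise was that of Glotr_82138, with 0.563, 0.420 and 0.470 TPM in the cedar libraries, against 0.0621, 0.123 and 0.0474 TPM in the glucose libraries (0.77). The call of Glotr_82138 was lost without cedar replicates 1 (0.71) or 3 (0.78) and without glucose replicates 1 (0.75) or 3 (0.73). Glotr_48505 had 538, 80.2 and 388 TPM in the cedar libraries, against 21.1, 22.5 and 27.0 TPM in the glucose libraries, and its call was lost without cedar replicate 3 (3.13) and without each of the glucose libraries (3.35 to 3.53). Glotr_43580, not called (1.25), was upregulated without cedar replicate 2 (1.53).

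The words of the annotation gave a second P450 list, which was not chosen by change but overlaps the first. Of its 28 members 26 were tested, and 10 were upregulated and 4 downregulated, against 15.2% and 15.7% of all gene models tested. The median log2 fold change was 0.19 against 0.04 over all gene models tested. The list covers only gene models with the lowest ID numbers, and its downregulated share was near that of all gene models tested. Its largest fall was that of Glotr_38440, with 2.27, 2.13 and 2.77 TPM in the cedar libraries, against 244, 209 and 202 TPM in the glucose libraries (-6.24, standard error 0.123, limma adjusted p = 1.98e-07). Glotr_29936 (-2.14) and Glotr_42395 (-2.07) also fell. P450 genes thus included members with large changes in both directions.

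MFS transporters likewise included rises and falls once they were taken by name. The 6 that the study listed all rose, by log2 fold changes of 4.33 to 8.92, as a list of the largest rises must. Of the 38 named by the annotation, 35 were tested, and 7 were upregulated and 7 downregulated, against 15.2% and 15.7% of all gene models tested. Their median log2 fold change was 0.23. Glotr_34700 had 75.8, 96.2 and 65.8 TPM in the cedar libraries, against 5.6, 5.28 and 5.68 TPM in the glucose libraries (3.71), and the sugar transporter Glotr_46872 had 78.7, 85.6 and 75.8 TPM, against 9.50, 7.98 and 8.27 TPM (3.15). Among the falls were 2 that the annotation likens to monocarboxylate transporters, Glotr_41449, with 8.75, 10.1 and 7.92 TPM in the cedar libraries, against 172, 207 and 219 TPM in the glucose libraries (-4.40), and Glotr_6663, with 3.18, 1.82 and 2.75 TPM, against 64.9, 56.0 and 55.3 TPM (-4.29).

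Genes of secondary metabolism included rises and falls. Polyketide synthases build carbon chains from acyl units, including precursors of the quinones of brown rot fungi. Of the 4 listed, 2 were downregulated and none upregulated, against 15.7% and 15.2% of all gene models tested. Glotr_116317 had 3.58, 2.92 and 3.17 TPM in the cedar libraries, against 92.4, 130 and 90.6 TPM in the glucose libraries (-4.80, standard error 0.159, limma adjusted p = 1.16e-06), and Glotr_91951 had 6.31, 7.68 and 6.42 TPM, against 25.9, 26.0 and 14.3 TPM (-1.58). Of 10 terpene synthases, which cyclize isoprenoid chains, 2 were upregulated and 2 downregulated, near the shares of 15.2% and 15.7% of all gene models tested. Glotr_116237 had 39.2, 27.4 and 48.8 TPM in the cedar libraries, against 5.40, 6.0 and 9.27 TPM in the glucose libraries (2.40), while Glotr_64172 had 33.9, 25.7 and 35.8 TPM, against 125, 111 and 128 TPM (-1.93). The most abundant, Glotr_103889, had 1222, 255 and 939 TPM in the cedar libraries, against 186, 162 and 103 TPM in the glucose libraries. It missed the threshold (2.19, limma adjusted p = 0.0129) and passed it without cedar replicate 2 (2.88). Without that library Glotr_48290 (-0.75) was downregulated as well (-0.92). With all 3 groups in 1 fit, Glotr_64172 and Glotr_117331, the other downregulated member, lost their calls.

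Other gene lists were built from the words of an annotation that names 1734 gene models, of which 1411 were tested, 181 upregulated and 204 downregulated, with a median log2 fold change of 0.08. The list of ribosomal proteins, parts of the machine that makes protein, had 24 members tested, of which 3 were upregulated and 7 downregulated. The shares over all gene models tested were 15.2% and 15.7%, and the median of the list was 0.04. Within it, the 8 proteins of the 40S or 60S subunit, a subset taken after the values were seen, held all 7 falls, and in all 8 every cedar library was below every glucose library, with a median log2 fold change of -2.37. Glotr_6576, a fusion of ubiquitin with protein L40, had 270, 87.5 and 208 TPM in the cedar libraries, against 1778, 1562 and 1646 TPM in the glucose libraries (-3.28, standard error 0.390, limma adjusted p = 0.000331). Glotr_39358, protein L37, had 177, 90.0 and 157 TPM in the cedar libraries, against 834, 810 and 934 TPM in the glucose libraries (-2.65, standard error 0.253). Cedar replicate 2 was the lowest library in all 8. The 10 mitochondrial ribosomal proteins had a median of 0.12, with Glotr_34963 upregulated (adjusted p = 0.0119 with no filter on low values, which ends its call) and none downregulated. Without such a subunit in their names, Glotr_36688 (protein S18, 0.31) and Glotr_44755 (protein S8, 0.42), were not called and lay above glucose in every cedar library. The other two upregulated members of the list, Glotr_14485 and Glotr_46458, are named as kinases of a ribosomal protein and not as parts of the ribosome, and the call of Glotr_46458 was lost without cedar replicates 1 (0.96) or 2 (0.94) or glucose replicate 3 (0.96).

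All 8 gene models matched by the word proteasome, the complex that degrades tagged proteins, were below glucose in every cedar library, with a median log2 fold change of -0.84, but 2 were downregulated, against 15.7% of all gene models tested, and the other 6 had ratios above 0.5. They comprise 6 proteasome subunits and 2 predicted RNA-binding proteins of proteasome assembly, Glotr_34130 and Glotr_35691. Glotr_33104 had 125, 53.7 and 109 TPM in the cedar libraries, against 547, 543 and 352 TPM in the glucose libraries (-2.38, limma adjusted p = 0.000807). The other was Glotr_34130, with 3.41, 3.28 and 3.87 TPM in the cedar libraries, against 17.6, 16.6 and 16.7 TPM in the glucose libraries (-2.12), so 1 of the 2 falls was that of an assembly protein. Rescaled to the same total TPM, 4 of the 8 were downregulated. Of 20 gene models matched by the words for histones and DNA replication, 6 were downregulated and 1 upregulated, against 15.7% and 15.2% of all gene models tested. The list also holds cyclins, transcription factor subunits and histone methyltransferase entries. Its falls include the cyclin B gene Glotr_27560 (-1.03), and its rise was that of Glotr_41174, named as a DNA polymerase of family X (1.51). Glotr_47667, a histone H2A, had 7.96, 2.69 and 3.88 TPM in the cedar libraries, against 144, 151 and 148 TPM in the glucose libraries (-4.91, standard error 0.324, limma adjusted p = 2.11e-05), and Glotr_40128, a histone H4, had 22.3, 37.1 and 24.0 TPM, against 166, 149 and 155 TPM (-2.51). A second histone H4 gene, Glotr_45543, had 542, 528 and 516 TPM in the cedar libraries, against 377, 355 and 317 TPM in the glucose libraries, so histone genes did not move as 1 group. Similar copies of histone genes may share reads.

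Of 13 tested gene models matched by the words for mitochondrial respiration, 2 were downregulated, a share near the 15.7% of all gene models tested, and none upregulated. Words alone placed them on this list, and their part in respiration was not tested. Glotr_30322, a reductase that passes electrons from NADH to cytochrome b5, had 34.6, 39.1 and 38.0 TPM in the cedar libraries, against 158, 178 and 186 TPM in the glucose libraries (-2.21, standard error 0.104). Glotr_38666, a subunit of ATP synthase, had 94.9, 91.7 and 93.6 TPM in the cedar libraries, against 196, 186 and 209 TPM in the glucose libraries (-1.07), a call that was lost with quantile normalization (-0.79). Of 11 tested gene models matched by the words for alcohol dehydrogenases, 4 were downregulated and 2 upregulated, against 15.7% and 15.2% of all gene models tested. The 2 upregulated ones are named as a zinc-binding oxidoreductase (Glotr_34384, 1.07) and an oxidoreductase related to short-chain alcohol dehydrogenases (Glotr_40147, 1.57). The call of Glotr_34384 was lost without cedar replicates 1 (1.10) or 3 (0.95) or glucose replicates 2 (0.85) or 3 (1.15). The class V alcohol dehydrogenase Glotr_34733 had 0.640, 0.270 and 0.583 TPM in the cedar libraries, against 132, 92.7 and 86.3 TPM in the glucose libraries (-6.70, standard error 0.213, limma adjusted p = 9.23e-07). Glotr_45800, named as sorbitol dehydrogenase, had 1.83, 2.06 and 1.99 TPM in the cedar libraries, against 40.2, 57.3 and 126 TPM in the glucose libraries (-4.76).

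Of 52 protein kinase genes 7 were upregulated and 4 downregulated, and of 23 peptidases 2 were upregulated and 4 downregulated, against 15.2% and 15.7% of all gene models tested. Glotr_15331, named as an assembly protein of the Snf1 kinase complex, which in yeast governs the use of carbon sources other than glucose, had 116, 115 and 96.4 TPM in the cedar libraries, against 320, 318 and 283 TPM in the glucose libraries (-1.49, standard error 0.119, limma adjusted p = 5.14e-05). Of 22 gene models matched by the words for lipases, esterases and alpha/beta-hydrolases 3 were upregulated and 1 downregulated, and 1 of the 3, Glotr_38410, is named as a topoisomerase of meiosis. The predicted lipase Glotr_29189 had 46.5, 17.1 and 46.0 TPM in the cedar libraries, against 0.600, 0.936 and 0.936 TPM in the glucose libraries (4.68, standard error 0.379). Of 13 glycoside hydrolases named by the annotation, 3 were upregulated, led by Glotr_39602 with 119, 75.7 and 114 TPM in the cedar libraries, against 5.41, 4.43 and 5.76 TPM in the glucose libraries (4.16), and 1 was downregulated. That was Glotr_44523 of family GH16, with 3.56, 1.95 and 4.44 TPM in the cedar libraries, against 96.4, 86.3 and 115 TPM in the glucose libraries (-4.76). Without cedar replicate 2, 5 of the glycoside hydrolases and 5 of the lipase list were upregulated.

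The remaining lists each had fewer than 12 tested members and few calls, beside 15.2% upregulated and 15.7% downregulated of all gene models tested. Of 11 heat shock proteins and chaperones, 1 was upregulated and 2 downregulated, of which Glotr_38564 lost its call without cedar replicate 2 (-0.95). Of 8 translation factors 2 were upregulated, and both calls depended on single libraries. That of Glotr_42151 (0.94) was lost without cedar replicate 2 (0.76) or glucose replicates 1 (0.99) or 2 (0.83), and that of Glotr_46243 (0.95), an argonaute-like protein, without cedar replicate 3 (0.92) or glucose replicate 1 (0.94). Of 10 gene models matched by the words for amino acid and peptide transporters and 9 for aldo-keto reductases, 1 each was downregulated and none upregulated. The first list includes a metacaspase, Glotr_44208, which was not called. Catalases and peroxidases had 2 of 5 upregulated, of which Glotr_7745, a chloroperoxidase, had 119, 93.2 and 130 TPM in the cedar libraries, against 41.7, 35.4 and 34.0 TPM in the glucose libraries (1.60). The other, Glotr_24220, lost its call without cedar replicates 2 (1.51) or 3 (1.41) and without each of the glucose libraries (log2 fold changes of 1.48 to 1.90). Of 6 gene models matched by the words for sterol and terpenoid precursor synthesis, 2 were upregulated. Glotr_41999 (1.55) is named as a farnesyl cysteine-carboxyl methyltransferase and not as an enzyme of precursor synthesis. The other, Glotr_43578 (1.49), lost its call without cedar replicates 1 (1.35) or 3 (1.38) or glucose replicates 1 (1.11) or 2 (1.55). Sugar transporters had 2 of 3 upregulated, of which Glotr_45233 (0.84) lost its call without cedar replicates 1 (0.73) or 3 (0.79) and without each of the glucose libraries (0.79 to 0.90). Also upregulated were 1 of 4 chitin genes and 1 of 4 genes of fatty acid oxidation, of which another was downregulated. The aldehyde dehydrogenase Glotr_44016 was upregulated (1.96), and 1 of 2 aminoacyl-tRNA synthetases, 1 of 2 members of the GMC oxidoreductase list (Glotr_43196, named vanillyl-alcohol oxidase) and 1 of 3 genes of the tricarboxylic acid and glyoxylate cycles (Glotr_42369, which that annotation likens to isocitrate lyase) were downregulated. Glutathione S-transferases, aquaporins, iron uptake, glycolysis and the single terpenoid synthase named there had no calls, with 1 or 2 tested members each. The glycolysis member, Glotr_41537, is named as phosphoglycerate mutase-like, and the annotation also likens it to acid phosphatases.

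Gene models with the same call were often neighbours in the row order of the RefSeq annotation of assembly Glotr1_1. Its scaffolds are unnamed, so neighbours were inferred from rows with increasing start positions, and some may lie on different scaffolds. Of 1557 upregulated gene models placed in that order, 597 (38.3%) had an upregulated gene model next to them, against 2602 of 10159 tested gene models (25.6%) with an upregulated neighbour. Of 1581 downregulated gene models placed there, 580 (36.7%) had a downregulated neighbour, against 2650 of 10159 (26.1%). These shares are a description and were not tested. Runs of 4 or more were found 10 times among the upregulated gene models, always of 4, and 16 times among the downregulated ones, of which 3 had 6 members and 1 had 9.

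The run of 9 downregulated gene models, chosen after its values were seen, spanned Glotr_127230 to Glotr_127236 and held an acyl-CoA oxidase (Glotr_39102), which starts the breakdown of fatty acids, the P450 Glotr_38440 and the MFS transporter Glotr_38489. In these 9 the cedar libraries lay between 0.242 and 5.24 TPM, against 22.0 to 306 TPM in the glucose libraries. Glotr_92054 changed most, with 0.543, 0.242 and 0.607 TPM in the cedar libraries, against 111, 110 and 89.8 TPM in the glucose libraries (-6.77, standard error 0.176). Glotr_104553 was the most abundant on glucose, with 3.77, 3.51 and 4.49 TPM in the cedar libraries, against 306, 263 and 222 TPM in the glucose libraries (-5.89). Of the 9, only Glotr_104553 was called against cellulose, with a lower level on cedar (-1.90). A second run, of 6, held Glotr_81499, with 30.0, 29.4 and 33.0 TPM in the cedar libraries, against 1829, 1667 and 1226 TPM in the glucose libraries (-5.63), together with Glotr_133278 (-4.08) and Glotr_141118 (-6.82).

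**Figure D4:**
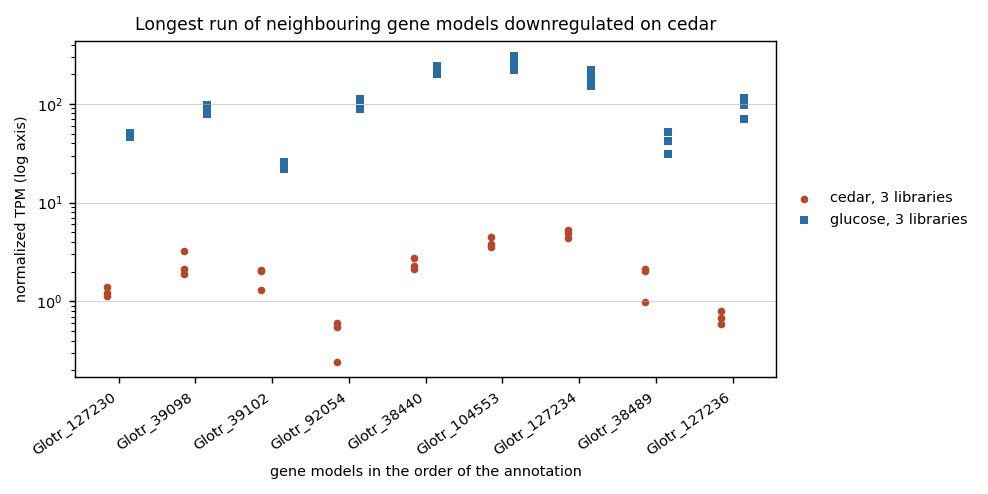
Normalized TPM (vertical, log axis) in each cedar library (red circles) and each glucose library (blue squares) of the 9 neighbouring gene models of the longest run, in the order of the annotation. No gene model has a cedar library above 5.24 TPM or a glucose library below 22.0 TPM.

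Among the upregulated runs, 1 of 4 held the glyoxylate dehydrogenase Glotr_54623 next to Glotr_20246, Glotr_70072 and the MFS transporter Glotr_34700. Glotr_20246 had 167, 133 and 171 TPM in the cedar libraries, against 18.8, 27.7 and 28.1 TPM in the glucose libraries. Another, with Glotr_42001 at its end, combined a very abundant gene with Glotr_93635, Glotr_76396 and Glotr_42228, none of which exceeded 55 TPM on cedar. The run of Glotr_77634, Glotr_100356 and Glotr_139326 ended in the esterase Glotr_77637. These runs, too, were chosen after their values were seen.

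Cedar replicate 2 differed from the other cedar libraries in the upregulated gene models themselves. In 56 of the 1601 it lay over 1 log2 unit below the mean of the others and in 34 over 1 log2 unit above it, and among the 1660 downregulated gene models it lay below in 97 and above in 9. The lowest were the endoglucanase Glotr_63180, the AA9 gene Glotr_63531, the xylanase Glotr_140289 and the P450 gene Glotr_48505. Glotr_127948, which the annotation does not cover, had 1693, 318 and 1038 TPM in the cedar libraries, against 7.6, 6.84 and 60.6 TPM in the glucose libraries. The highest were Glotr_136016, with 127, 811 and 158 TPM in the cedar libraries, against 15.2, 15.7 and 22.6 TPM in the glucose libraries, and Glotr_96613, with 139, 718 and 168 TPM, against 3.96, 5.41 and 28.6 TPM. The glycopeptide gene Glotr_104526 followed them. Genes of this paragraph were chosen after their values were seen. Without cedar replicate 2, 1683 gene models were upregulated, of which 1486 were also upregulated with it, and 1631 were downregulated, of which 1543 were also downregulated with it.

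**Figure D5:**
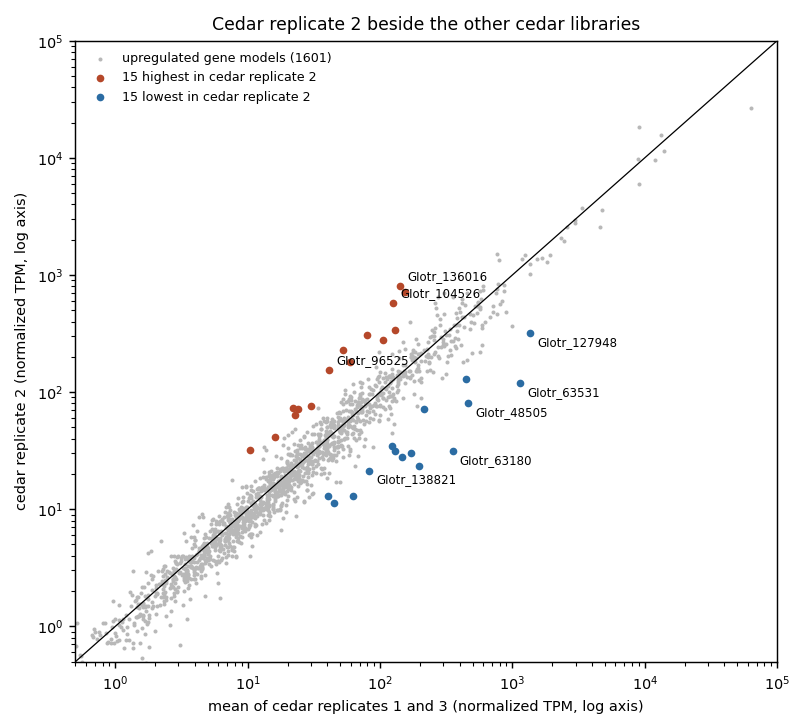
Normalized TPM in cedar replicate 2 (vertical, log axis) against the mean of cedar replicates 1 and 3 (horizontal, log axis) for the 1601 upregulated gene models (grey points), with the 15 lowest (blue) and the 15 highest (red) in replicate 2 beside the line of equality. Glotr_63531 lies at 119 TPM in replicate 2, below its 1077 and 1200 TPM in replicates 1 and 3, and Glotr_136016 at 811 TPM, above its 127 and 158 TPM.

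Compared with cellulose cultures of the same age, cedar cultures had 1124 of 10503 tested gene models (10.7%) higher and 625 (5.95%) lower. These counts depend on single libraries and on scaling: without cedar replicate 3 they were 287 and 149, without cedar replicate 1 382 and 208, without cedar replicate 2 707 and 400, and without cellulose replicate 1 747 and 407. Without cellulose replicate 2 the number of lower gene models was 379. With all libraries scaled to an equal TPM sum, the median log2 fold change over all gene models was 0.92 in place of 0.05, with 4899 gene models higher and 140 lower. Of the 1601 gene models upregulated against glucose, 432 were higher on cedar than on cellulose and 52 lower. Of the 1630 downregulated ones that were tested here, 79 were higher and 329 lower.

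Among the gene models higher on cedar than on both other substrates was the MFS transporter Glotr_122499, with 356, 376 and 389 TPM in the cedar libraries, against 11.6, 13.9 and 19.7 TPM in the cellulose libraries and 1.72, 2.44 and 2.73 TPM in the glucose libraries. It was higher on cedar than on cellulose with a log2 fold change of 4.62 (limma adjusted p = 0.000168). Glotr_77843, which the annotation does not cover, had 102, 137 and 131 TPM in the cedar libraries, against 6.11, 4.35 and 11.2 TPM in the cellulose libraries and 3.55, 3.71 and 3.29 TPM in the glucose libraries (4.09 against cellulose). Glotr_35605, which the annotation places among ion-pumping and lipid-transporting ATPases, had 99.2, 58.2 and 97.7 TPM in the cedar libraries, against 7.40, 4.69 and 3.44 TPM in the cellulose libraries and 29.2, 30.9 and 30.0 TPM in the glucose libraries (3.93 against cellulose). In the P450 list of the study, 13 members were higher on cedar than on cellulose and none lower, but the study chose that list as genes upregulated on cedar or cellulose in these samples, so the count is no independent evidence. In the P450 list of annotation words, 9 of 26 were higher and none lower, against 10.7% and 5.95% of all gene models tested. Glotr_140036, which is in the study's list and not in that of annotation words, had 69.3, 56.6 and 71.5 TPM in the cedar libraries. In the cellulose libraries it had 4.20, 5.76 and 4.39 TPM (3.65, limma adjusted p = 0.000168).

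Of the 24 cellulose genes, 10 were lower on cedar than on cellulose and 2 higher, against 5.95% and 10.7% of all gene models tested. Of the 6 hemicellulose genes 2 were lower and none higher, and of the 12 pectin genes 1 was higher and none lower. The GH1 beta-glucosidase Glotr_141319 had 26.5, 16.3 and 29.6 TPM in the cedar libraries, against 234, 267 and 195 TPM in the cellulose libraries (-3.27, limma adjusted p = 0.000608). The xylanase Glotr_46499 had 128, 28.0 and 163 TPM in the cedar libraries, against 2789, 3279 and 893 TPM in the cellulose libraries (-4.58, limma adjusted p = 0.00468). The transporter Glotr_77119 had 582, 374 and 604 TPM in the cedar libraries, against 1843, 2404 and 1988 TPM in the cellulose libraries (-2.02), so the MFS transporters of the study's list included 1 higher and 2 lower on cedar than on cellulose.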

How the data were processed

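Strand-specific paired-end RNA-seq was made from mycelium of 3 cultures on each carbon source. Per the study's methods and the submitters' processing notes, the authors used FaQCs to trim reads and kallisto 0.44.0 for pseudoalignment against the filtered models of assembly Glotr1_1, and normalized TPM between libraries with sleuth 0.29.0. The authors deposited these normalized TPM as a signal for each library, not pooled, and reads shared by similar gene models were divided between them by estimation. Depth cannot be read from these values, and no interval of counting error is given. The authors' own columns of comparisons were not used.

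The 3 cedar and 3 glucose libraries were fitted with limma 3.58.1 in R 4.3.3 (lmFit, then eBayes whose prior variance follows the mean level) on log2(TPM + 0.5), with Benjamini-Hochberg adjustment. Gene models entered where 3 or more of the 6 libraries reached 0.1 TPM. Calls required that the adjusted p was below 0.01 and that the group means had a ratio of 2 or more, or 0.5 or less. A second fit of the same form took the 3 cedar and 3 cellulose libraries. The fit was tested on simulated data. Python 3.11.15, pandas 2.3.3, NumPy 2.4.6 and matplotlib 3.10.9 were used for the rest. The study calls its replicates biological.

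Named gene models were the 12 largest rises and the 12 largest falls among called gene models whose groups did not overlap, the 10 highest means on cedar, all members of the families listed by the study, up to 3 called members in each direction of each list of annotation words, and, among gene models called against glucose, the 6 largest and 6 smallest log2 fold changes against cellulose. Others are said to have been chosen after their values were seen. Members and lists were chosen with earlier results of these data known. Names came from the part of the study's annotation that was read here. That part names 1734 of the 11846 gene models, those with the lowest ID numbers. The study describes its own list as covering all genes, so a missing name here does not mean that the study gave none. Of the lists of annotation words, those for ABC transporters, short-chain dehydrogenases and zinc-finger transcription factors matched no gene model. This reflects the words searched, since Glotr_40147, for example, is named as related to short-chain alcohol dehydrogenases. Gene order came from RefSeq for assembly Glotr1_1, where 11422 of 11753 gene models matched. Neighbours were adjacent rows of protein-coding genes, and the order was split wherever the start position fell. Alternatives changed the pseudocount, filter, scaling, variance model, samples in the fit, replicate block, thresholds and the libraries included.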

Additional observations from a re-analysis of the deposited data

Results flagged for a closer look

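The gene models here changed on cedar against glucose and also differed between cedar and cellulose cultures in the direct test of those groups. They are the 6 with the largest and the 6 with the smallest log2 fold change of cedar over cellulose among gene models past both thresholds, so their size is fixed by the choice.

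Of those lower on cedar than on cellulose, Glotr_42369 (oxaloacetate acetylhydrolase) had a log2 fold change of -7.43 and Glotr_138821 (GH12 endoglucanase) -5.89. Glotr_63180 (GH5_5 endoglucanase) had -5.48, Glotr_132559 -5.76, Glotr_102744 -5.22 and Glotr_133444 -5.06, the last 3 not covered by the annotation. Glotr_138821 and Glotr_63180 were nonetheless upregulated against glucose, while the other 4 were downregulated. The call of Glotr_63180 against cellulose was lost without cedar replicate 1 (-5.96) or 3 (-6.17), without cellulose replicate 1 (-5.33) or 2 (-5.03), with quantile normalization, with a replicate block (adjusted p = 0.0236 by limma) and with no filter on low values. That of Glotr_138821 was lost with a replicate block (adjusted p = 0.0106 by limma).

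Of those higher on cedar than on cellulose, Glotr_34963, a mitochondrial ribosomal protein L22, had a log2 fold change of 5.6, with 20.9, 33.6 and 19.3 TPM in the cedar libraries, while 2 of the 3 cellulose libraries and 1 of the 3 glucose libraries listed it at 0. Glotr_122499 had 4.62, Glotr_136555 4.30, Glotr_77843 4.09 and Glotr_35605 3.93. Glotr_49072 had 4.22. Its level in glucose replicate 3, 16.9 TPM, lay above that in the other glucose libraries, 4.16 and 3.78 TPM, and its call against glucose (2.50) was lost without any 1 of the cedar libraries (2.44 to 2.55) and without glucose replicates 1 (2.20) or 2 (2.14).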

How the results depend on the processing

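Against glucose, the counts of 1601 upregulated and 1660 downregulated gene models stayed within 1.5 times under every alternative run, between 1326 (equal TPM sums) and 1770 (adjusted p under 0.05) and between 1512 (no filter) and 2011 (equal TPM sums), and with single libraries left out between 1413 and 1683 and between 1519 and 1631. Among the named genes none reversed. Of 184 called, 142 held under all alternatives, and of 41 not called, 29 stayed so.

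Against cellulose, the 1124 higher gene models became 4899 with equal TPM sums, 721 with quantile normalization and 285 with a replicate block, and ranged between 287 and 1232 with single libraries left out. The 625 lower ones became 140 with equal TPM sums, 382 with no filter and 127 with a replicate block, and ranged between 149 and 819. The cause was not tested.

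The replicate numbers do not pair the samples: same-numbered cedar and glucose libraries had correlations of deviations of 0.17, -0.03 and -0.13, and cedar and cellulose libraries 0.18, -0.39 and -0.24. With the replicate block, 1566 gene models were upregulated and 1627 downregulated against glucose. Values without counts leave the depth behind low gene models unknown, and 3 libraries a group limit the precision.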
